A study of Allium sativum with 18 samples.

Results

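The transcriptome of bulbs that had not begun to enlarge was compared between the garlic (*Allium sativum*) variety Yuanjiangyangsuan and the varieties Chalingzipisuan and Ershuizao. The comparison rests on 9 of the 18 libraries of the series, 3 of Yuanjiangyangsuan and 3 of each other variety, all those that the labels place at the stage before enlargement. The other 9 libraries hold enlarging bulbs of the same varieties. Garlic was planted in October 2019 on a single farm, and 3 individuals of each variety were the replicates of a stage. Bulbs before enlargement were collected in February 2020 and enlarging bulbs in March 2020. Stage and collection month therefore cannot be told apart. No treatment is described for any group. Each group is a single variety, and variety cannot be told apart from anything else in which the plots of the varieties differed. The labels name the tissue as leaf but the stage as that of bulbs, and the study describes bulbs, which was followed. No annotation of the identifiers was at hand, so that neither leaf nor bulb markers could be checked.

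Of the 57561 genes in the deposited table, 31236 reached 0.5 FPKM (fragments per kilobase of gene, scaled to the library total) in 3 or more of the 9 libraries, and these were tested. A gene was called higher or lower in Yuanjiangyangsuan only where it passed against Chalingzipisuan and against Ershuizao separately, each with an adjusted P under 0.05 in limma and a difference above 2-fold on the scale of log2(FPKM + 0.5). Both comparisons use the same 3 Yuanjiangyangsuan libraries, so that a deviation of these libraries enters both.

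Garlic is sterile and is propagated by its cloves, so that the plants of a variety are close to a clone. A clove is an enlarged axillary bud, and in bulb and tuber crops the start of enlargement is set by day length through genes related to FLOWERING LOCUS T (FT), with gibberellins acting on the same step. Bud outgrowth itself is held back by TB1-type transcription factors and depends on auxin.

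Before any call, the 3 Yuanjiangyangsuan libraries stood apart from the 6 others. The first principal component of log2(FPKM + 0.5) over the tested genes took 64.8% of the variance. The Yuanjiangyangsuan libraries lay between -158 and -140 on it, against 53.1 to 86.0 for the libraries of both other varieties. The second component, with 10.9% of the variance, separated Ershuizao (45.6 to 55.7) from Chalingzipisuan (-70.6 to -26.9), with Yuanjiangyangsuan between them (-6.60 to 17.4). In Euclidean distance, a Yuanjiangyangsuan library was 229 to 256 units from a Chalingzipisuan library and 235 to 264 from an Ershuizao library. The distances between replicates were 99.3 to 115 in Yuanjiangyangsuan, 111 to 137 in Chalingzipisuan and 91.3 to 120 in Ershuizao. Those between Chalingzipisuan and Ershuizao libraries were 119 to 158, and so overlapped with the distances between replicates of these varieties.

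**Figure D1:**
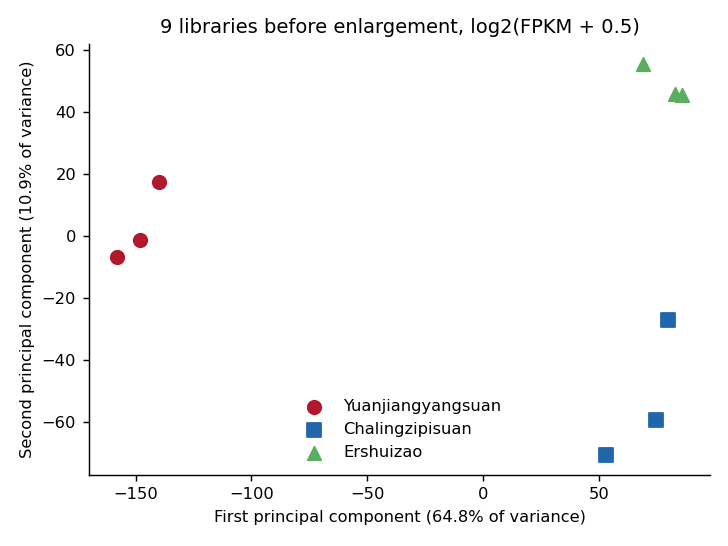
Position of the 9 libraries before enlargement on the first (x axis, 64.8% of the variance) and second (y axis, 10.9%) principal components of log2(FPKM + 0.5), in arbitrary units of that scale. Each point is a library; the 3 Yuanjiangyangsuan libraries lie between -158 and -140 on the x axis and the 6 others between 53.1 and 86.0.

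The fragments that fell on genes were recovered from the FPKM values. They numbered 10714089 to 13564695 per library in Yuanjiangyangsuan, against 11924715 to 14117986 in Chalingzipisuan and 11079541 to 13452277 in Ershuizao, so that the depths overlapped. Yuanjiangyangsuan libraries had 88.0% to 90.5% of their fragments on genes, against 83.3% to 89.5% in Chalingzipisuan and 81.6% to 84.3% in Ershuizao. Fewer genes were detected in Yuanjiangyangsuan, with 30914 to 31998 genes above 0, against 33028 to 33596 in Chalingzipisuan and 33978 to 34172 in Ershuizao. The part of these differences in the calls was not tested. Replicates differed by 9.34 to 41.1 times the sampling noise of their fragments (chi-square per degree of freedom), so that none of the libraries before enlargement repeats another.

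Against both other varieties, 2248 genes were higher in Yuanjiangyangsuan (7.20% of the genes tested) and 3827 were lower (12.3%), together 6075 genes (19.4%). Of these calls 37.0% were therefore higher, a share that became 47.7% (2652 higher and 2903 lower) after quantile normalization. Without Yuanjiangyangsuan replicate 1, 2 or 3 the higher genes numbered 1321, 1231 and 1158, because a gene expressed in that variety alone then reaches 0.5 in only 2 libraries. The median log2 difference from the mean of the other varieties was 1.91 over the higher genes and -2.13 over the lower ones, against -0.02 over all genes tested. With each group at 0 set to 3 fragments per library, the medians of the log2 ratio of FPKM values were 2.32 and -2.44. More than 4-fold against both varieties, 922 genes were higher and 1802 lower, and more than 16-fold, 138 were higher and 300 lower.

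Taken one at a time, the comparison with Chalingzipisuan gave 3030 higher and 4551 lower genes (24.3% of the genes tested), and that with Ershuizao gave 2931 higher and 5237 lower genes (26.1%). Calls that passed against Chalingzipisuan but not against Ershuizao numbered 1490, and 2077 passed against Ershuizao but not against Chalingzipisuan. Another 16 genes were higher than in one variety and lower than in the other. By the same rule Ershuizao and Chalingzipisuan, set against each other, differed in 569 genes (446 higher and 123 lower in Ershuizao, 1.82%), a count that came to 134 to 493 with a library left out and was lowest without Ershuizao replicate 3. In 4754 genes the 3 Yuanjiangyangsuan libraries all lay above the 6 others and in 5725 all below, together 33.5% of the genes tested.

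**Figure D2:**
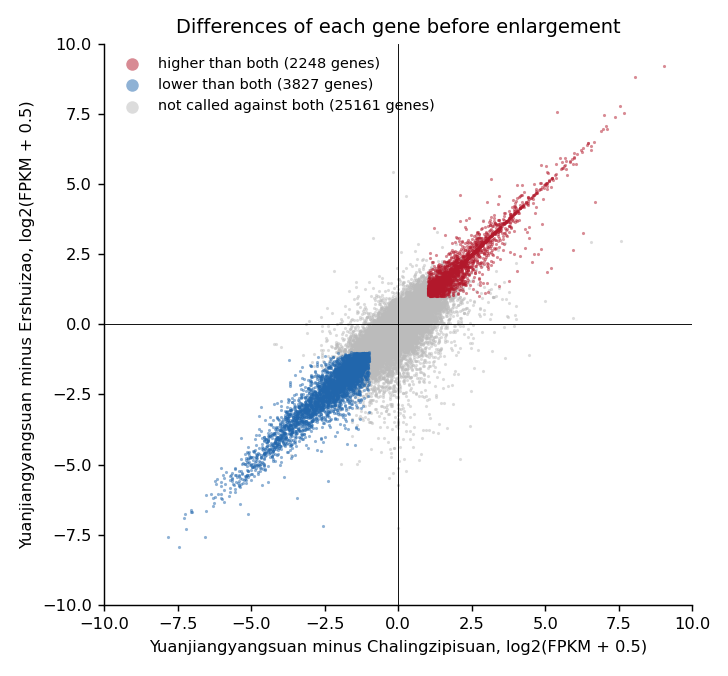
Each of the 31236 genes tested by its difference of Yuanjiangyangsuan from Chalingzipisuan (x axis) and from Ershuizao (y axis), both in log2(FPKM + 0.5) before enlargement. Red points are the 2248 genes higher and blue points the 3827 genes lower than in both; since both axes share the 3 Yuanjiangyangsuan libraries, the lie of the points along the diagonal is partly built in.

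Many calls concerned genes without transcripts in one of the groups. At 0 in all 3 Yuanjiangyangsuan libraries and at 0.5 FPKM or more in all 6 others were 1389 genes, of which 1388 were called lower. Where expressed, they had a median FPKM value of 3.31 and reached 107. With Yuanjiangyangsuan set to 3 fragments per library, the level was at least 6.06-fold lower for the median gene of this set and at least 10-fold lower for 410 genes, limits that cover counting error only. The reverse pattern, at 0 in all 6 libraries of the other varieties and at 0.5 or more in all 3 of Yuanjiangyangsuan, held for 492 genes, all of them called higher. Their median FPKM value in Yuanjiangyangsuan was 2.59 and the highest was 85.6, and against the floor of 3 fragments per library they were at least 5.37-fold higher for the median gene. These sets follow from their own definition and carry no separate test. Since reads of all varieties were aligned with a single reference genome, a gene that is absent or diverged in a variety and a gene that is silent there cannot be told apart in these values.

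The filter itself fixed the direction of a part of the calls. No library of the other varieties reached an FPKM value of 0.5 in 868 tested genes, which passed through Yuanjiangyangsuan alone and of which 833 were called higher. No Yuanjiangyangsuan library reached it in 3461, of which 2271 were called lower. Among the 21605 genes that reached 0.5 in all 9 libraries, for which this does not apply, 933 were higher (4.32%) and 1004 lower (4.65%), 8.97% in all. The remaining 9631 genes held 1315 higher and 2823 lower calls, so that most of the excess of lower genes lay among those under 0.5 in some library.

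The share of calls fell with abundance. In 4 equal groups of genes by mean log2(FPKM + 0.5) over the 9 libraries, from the lowest to the highest, 14.7%, 6.42%, 4.23% and 3.47% were higher in Yuanjiangyangsuan. For lower genes the shares were 19.0%, 19.9%, 7.24% and 2.79%. In the group of the most abundant genes, higher calls (271 genes) thus outnumbered lower ones (218 genes), and in each of the other groups lower calls did. The mean includes the libraries in which a called gene is at or near 0. The fall of the share with abundance is therefore in part built into the grouping.

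The summed share of higher and lower calls also went down with the length of the gene, which was recovered from the FPKM values together with the fragments. These lengths were multiples of 3 in 94.3% of genes, as coding lengths are. Up to 300 bases, 9.41% of genes were higher and 24.2% lower in Yuanjiangyangsuan. Between 601 and 900 bases these shares were 7.02% and 10.9%, and above 2000 bases they were 2.77% and 3.81%. Among the genes that reached 0.5 in all 9 libraries, the shares were 5.47% and 9.94% up to 300 bases and 1.39% and 2.26% above 2000 bases, and that of higher genes was largest between 451 and 600 bases (7.27%). Within the most abundant of the 4 groups, the shares were 4.81% and 5.81% up to 300 bases, 8.0% and 4.93% between 301 and 450 bases and 0.764% and 0.892% above 2000 bases, so that the shortest genes there did not have the most calls. Length was looked at after the calls were known and is given as a description.

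**Figure D3:**
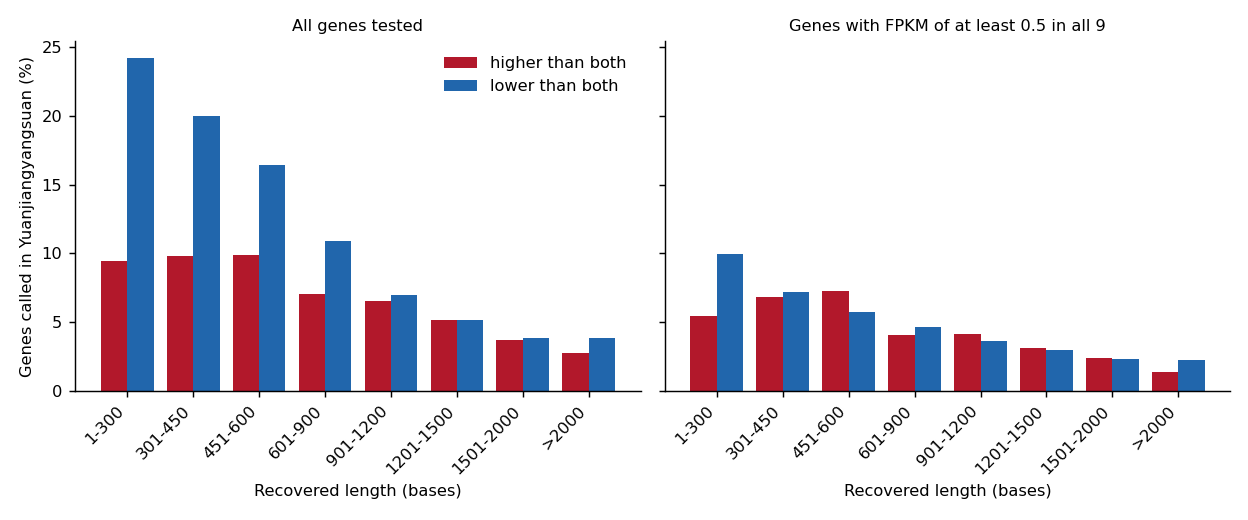
Share of genes called higher (red) and lower (blue) in Yuanjiangyangsuan than in both other varieties (y axis, %) by recovered length in bases (x axis), for all genes tested on the left and for genes that reached 0.5 FPKM in all 9 libraries on the right. The shares of lower genes go down with length to 3.81% and 2.26% above 2000 bases.

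The largest differences among genes detected in all 9 libraries were of more than 100-fold. *Asa0G02930.1* had FPKM values of 246.9, 254.9 and 347.8 in the Yuanjiangyangsuan libraries, against 0.993, 0.672 and 1.42 in Chalingzipisuan and 0.441, 1.21 and 0.778 in Ershuizao. Its log2 difference was 7.55 from Chalingzipisuan (standard error 0.28, limma adjusted p = 1.57e-07) and 7.78 from Ershuizao (standard error 0.28, limma adjusted p = 1.51e-07). *Asa2G01034.1* had 179, 230 and 183 in Yuanjiangyangsuan, against 0.199, 0.672 and 0.610 in Chalingzipisuan and 0.882, 0.729 and 0.194 in Ershuizao. The levels of both genes in the other varieties come from 1 to 7 fragments per library, so that their size there is loosely fixed. The log2 difference of *Asa2G01034.1* from the mean of the other varieties was 7.60 (standard error 0.27, limma adjusted p = 6.37e-08).

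*Asa7G04213.1* and *Asa3G01705.1* were the furthest in the other direction. *Asa7G04213.1* had FPKM values of 2.35, 2.44 and 7.79 in Yuanjiangyangsuan, against 1547, 743 and 736 in Chalingzipisuan and 616, 1149 and 714 in Ershuizao. Its log2 difference was -7.85 from Chalingzipisuan and -7.60 from Ershuizao (standard error 0.45 each, limma adjusted p = 1.52e-06 and 1.75e-06). *Asa3G01705.1* had 0.428, 0.665 and 0.806 in Yuanjiangyangsuan, against 213, 146 and 148 in Chalingzipisuan and 154, 268 and 134 in Ershuizao. Its log2 difference from the mean of the other varieties was -7.26 (standard error 0.23, limma adjusted p = 4.59e-08). In all 4 genes the groups were far from overlapping, and Ershuizao and Chalingzipisuan overlapped with each other (limma adjusted p between 0.779 and 0.941). The exact two-sided permutation p of 3 against 6 libraries was 0.0238 for each of these 4 genes, the smallest that this design allows. The genes were chosen without overlap of the groups, which fixes this value.

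These 4 genes, chosen for the size of their difference, had the same recovered length of 312 bases, which is 104 codons. Of the 175 tested genes of that length 43 were higher (24.6%) and 34 lower (19.4%) in Yuanjiangyangsuan, 44.0% in all. Among all genes tested 19.4% were called. Among those of 301 to 450 bases, 9.82% were higher and 20.0% lower, so that the share of lower genes was ordinary for that length. Among the 289 lengths with at least 40 tested genes, the share called ranged from 3.77% to 44.0% with a median of 21.8%, and that of 312 bases was the highest. Summed over the 175 genes, the FPKM values were 21136, 25189 and 24663 in Yuanjiangyangsuan, against 25023, 15090 and 15488 in Chalingzipisuan and 12539, 20841 and 12167 in Ershuizao. The sums of the groups overlapped only through Chalingzipisuan replicate 1. Those of the remaining libraries of both other varieties, 12167 to 20841, lay below the lowest of Yuanjiangyangsuan (21136). Single genes of the set differed more than 100-fold in both directions. Whether genes of this length are near-identical copies among which fragments can be split could not be checked without their sequences, and the levels of the single genes are to be taken as uncertain for that reason. The set was singled out after its values were seen, and no test was applied to it.

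**Figure D4:**
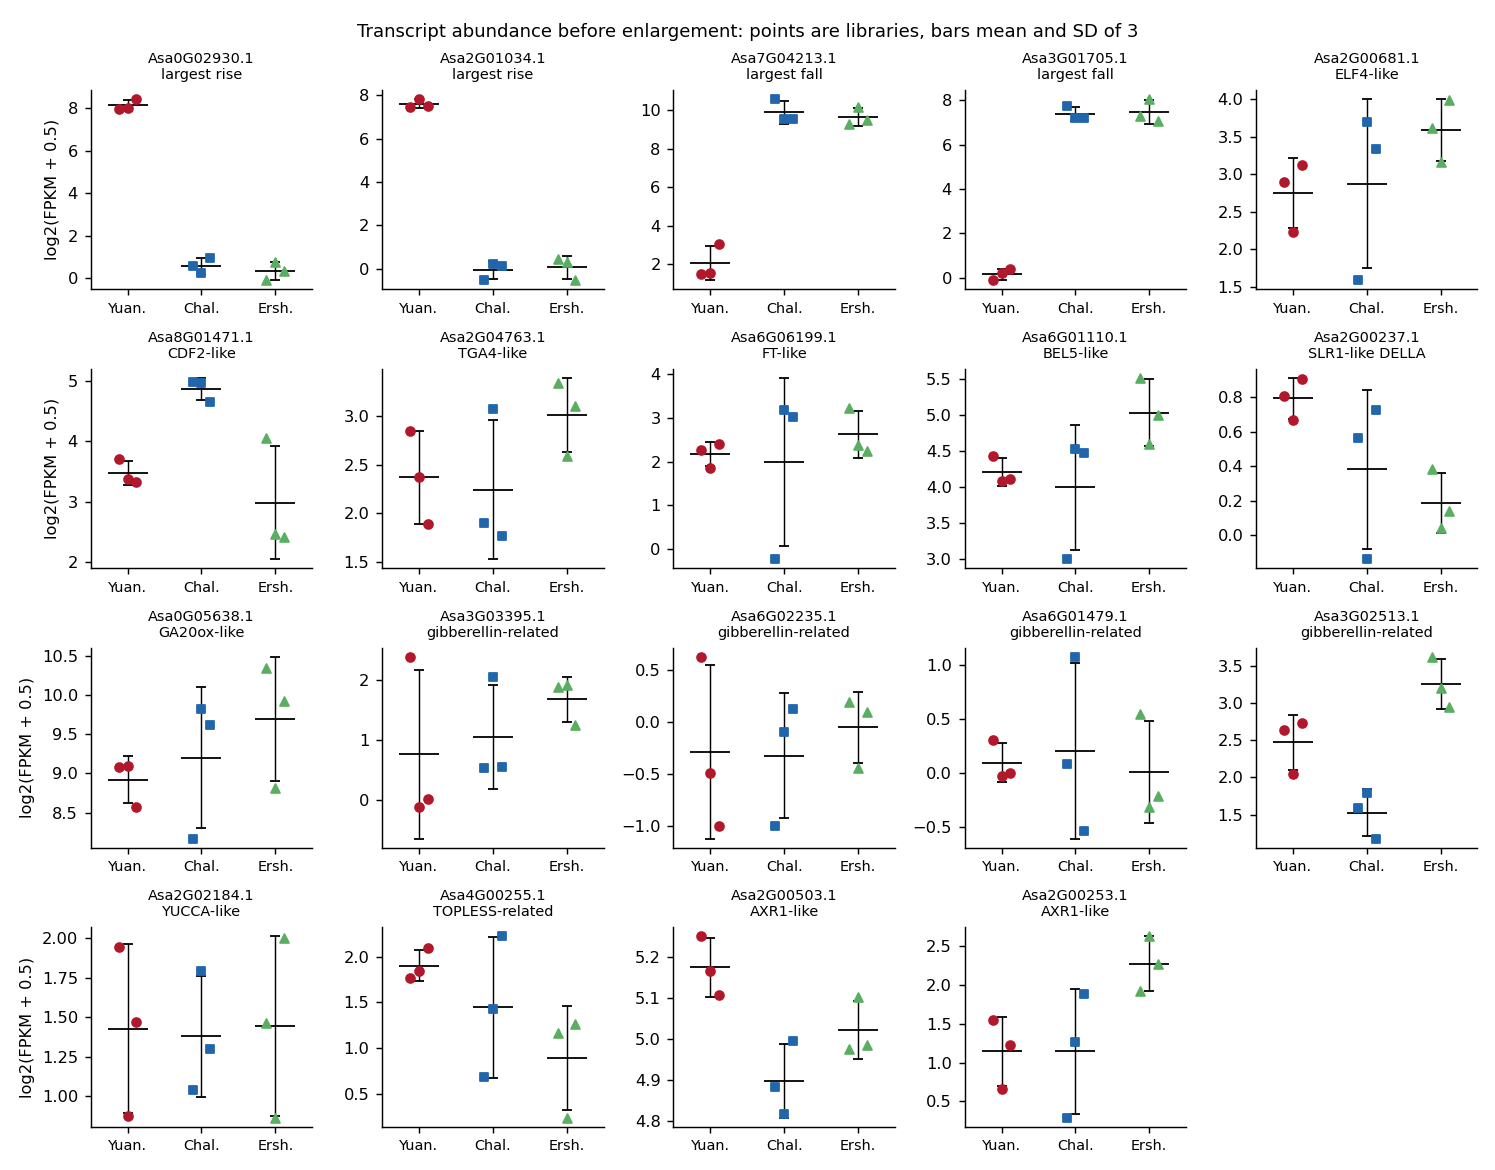
FPKM values of 19 named genes before enlargement, on the scale of log2(FPKM + 0.5) (y axis, with a range of its own in each panel) by variety (x axis, Yuanjiangyangsuan, Chalingzipisuan and Ershuizao from left to right). Points are libraries and bars the mean and SD of 3; the first 4 panels are the genes with the largest differences, and in the other 15, which are genes with a role given, only the AXR1-like *Asa2G00503.1* has its 3 Yuanjiangyangsuan points clear of all 6 others.

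Of 19 genes to which the study or an earlier account of these data gives a role 15 were tested, and limma called 0 of them against both varieties, while 19.4% of all genes tested were called. At an unadjusted P under 0.05 and 2-fold the count was also 0, as it was with voom on the recovered fragments. The median log2 difference of the 15 genes from the mean of the other varieties was -0.13, against -0.02 over all genes. Several of these genes were picked for their change with enlargement in the same varieties. The AXR1-like candidate of the study is counted under both identifiers that the study gives for it.

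Among the photoperiod genes, 4 of 5 were tested and 1 was called against Chalingzipisuan, as were 24.3% of all genes tested. It was *Asa8G01471.1*, related to CDF2, a DOF-type transcription factor that in Arabidopsis represses the flowering genes CO and FT. Its FPKM values were 12.5, 9.89 and 9.59 in Yuanjiangyangsuan, against 30.9, 30.8 and 24.7 in Chalingzipisuan and 16.2, 5.02 and 4.86 in Ershuizao. Yuanjiangyangsuan was thus below every Chalingzipisuan library and within the range of Ershuizao. The log2 difference was -1.39 from Chalingzipisuan (standard error 0.39, limma adjusted p = 0.0212) and 0.49 from Ershuizao (standard error 0.39, limma adjusted p = 0.355). The call against Chalingzipisuan was lost without Yuanjiangyangsuan replicate 2 (-1.34, limma adjusted p = 0.0624), without Yuanjiangyangsuan replicate 3 (-1.32, 0.0646) and without Chalingzipisuan replicate 2 (-1.34, 0.063).

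The FT-like *Asa6G06199.1*, of the family that carries the day-length signal from leaf to growing point, had FPKM values of 4.30, 3.14 and 4.76 in Yuanjiangyangsuan. In Chalingzipisuan it had 0.352, 8.60 and 7.57, and in Ershuizao 8.86, 4.74 and 4.25. Replicate 1 of Chalingzipisuan was far below its other replicates, as it was in the ELF4-like, BEL5-like and GA20ox-like genes, and without this library 2472 genes were higher and 3941 lower than in both varieties. For the FT-like gene the log2 difference of Yuanjiangyangsuan from the mean of the others was -0.13 (standard error 0.67, limma adjusted p = 0.896), or -0.69 without that library (limma adjusted p = 0.0602). The ELF4-like *Asa2G00681.1*, related to a component of the evening complex of the circadian clock, averaged 6.45 ± 2.05 in Yuanjiangyangsuan, 8.19 ± 5.13 in Chalingzipisuan and 11.9 ± 3.45 in Ershuizao (SD, n = 3 each). The TGA4-like *Asa2G04763.1*, a bZIP-type gene, averaged 4.85 ± 1.75, against 4.67 ± 2.80 in Chalingzipisuan and 7.75 ± 2.06 in Ershuizao (SD, n = 3 each). None of these 3 genes passed the test against either variety. The second TGA4-like gene, *Asa6G01159.1*, was below the filter, at 0.236, 0 and 0 in Yuanjiangyangsuan, against 0.0877, 0 and 0 in Chalingzipisuan and 0.633, 0.107 and 0.988 in Ershuizao.

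Of 9 gibberellin genes, 7 were tested and 0 were called against either variety, while 24.3% of all genes tested were called against Chalingzipisuan and 26.1% against Ershuizao. At an unadjusted P under 0.05 and 2-fold, 0 of the 7 were called against either variety, and with voom *Asa3G02513.1* was called against Chalingzipisuan. *Asa0G05638.1*, related to GA 20-oxidases, enzymes of gibberellin synthesis, was the most abundant of them. Its FPKM values were 542, 548 and 380 in Yuanjiangyangsuan, against 287, 907 and 784 in Chalingzipisuan and 1301, 449 and 974 in Ershuizao. The ranges overlapped, and its log2 difference from the mean of the others was -0.53 (standard error 0.41, limma adjusted p = 0.337). The other GA20ox-like gene, *Asa4G02474.1*, came to no more than 2 fragments in any of the 9 libraries and was not tested. *Asa6G01110.1*, related to the potato tuber-formation gene BEL5, averaged 18 ± 2.55 in Yuanjiangyangsuan, 17.2 ± 8.44 in Chalingzipisuan and 33.4 ± 11 in Ershuizao (SD, n = 3 each). Its log2 difference from Ershuizao, -0.83 (standard error 0.39, limma adjusted p = 0.128), did not pass. *Asa2G00237.1*, a DELLA gene related to rice SLR1, a repressor of gibberellin responses, averaged 1.24 ± 0.141 in Yuanjiangyangsuan, against 0.844 ± 0.387 in Chalingzipisuan and 0.646 ± 0.141 in Ershuizao (SD, n = 3 each). Its exact permutation p of 3 against 6 libraries was 0.0476, and with all genes considered it was not called (limma adjusted p = 0.124). After quantile normalization its log2 difference from the mean of the others was 0.98 (limma adjusted p = 0.0223), still short of 2-fold, so that its adjusted p depends on the scaling.

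*Asa3G02513.1*, known only as gibberellin-related from an earlier account of these data, lay between the other varieties. It had FPKM values of 5.73, 3.64 and 6.12 in Yuanjiangyangsuan, against 2.52, 2.97 and 1.76 in Chalingzipisuan and 11.8, 8.75 and 7.23 in Ershuizao. No value of one variety fell into the range of another. Its log2 difference was 0.95 from Chalingzipisuan (standard error 0.28, limma adjusted p = 0.0262), short of 2-fold, and under 5 alternatives, voom among them (1.08, adjusted p = 0.0327), it passed. Under others the limma adjusted p rose above 0.05, as with all 18 libraries in 1 fit (0.0886). It did so too without Yuanjiangyangsuan replicate 1 (0.0844) or replicate 3 (0.0898). The difference was -0.79 from Ershuizao (standard error 0.28, limma adjusted p = 0.0506). The other gibberellin-related genes of that account were weakly expressed. *Asa3G03395.1* had 4.69, 0.423 and 0.513 in Yuanjiangyangsuan, where replicate 1 decides the mean, and 0.947 to 3.63 in the other varieties. Without that replicate its log2 difference was -1.41 and the gene was called lower than the mean of the other varieties. In that fit 6899 genes were called against the mean of the others, and with all 9 libraries 25.6% of the genes tested were. *Asa6G02235.1* and *Asa6G01479.1* averaged 0.418 and 0.574 in Yuanjiangyangsuan and overlapped with the others. *Asa5G04732.1* was below the filter, with 2, 3 and 0 fragments in Yuanjiangyangsuan and 0 in the 6 other libraries.

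Of the 5 genes of bud outgrowth and auxin, 4 were tested. *Asa2G00503.1*, related to AXR1, which activates the ubiquitin-like protein needed for auxin response in Arabidopsis, had FPKM values of 37.6, 35.4 and 34.0 in Yuanjiangyangsuan, against 29.0, 27.7 and 31.4 in Chalingzipisuan and 31.0, 33.9 and 31.2 in Ershuizao. It was the only 1 of these 15 tested genes whose groups did not overlap, against 33.5% of all genes tested. The step was small, with a log2 difference of 0.21 from the mean of the others (standard error 0.10; limma adjusted p = 0.126; p = 0.0238 in the exact permutation test). The study's text gives its AXR1-like candidate as *Asa2G00503.1*, while captions of a main figure give *Asa2G00253.1*. Which of these identifiers is meant was not settled here. *Asa2G00253.1* had 2.42, 1.08 and 1.85 in Yuanjiangyangsuan, which overlapped with 0.723, 1.90 and 3.21 in Chalingzipisuan. The Yuanjiangyangsuan values lay below 3.30, 5.70 and 4.33 in Ershuizao. Its log2 difference from Ershuizao was -1.13 (standard error 0.42, limma adjusted p = 0.0601).

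*Asa4G00255.1*, a TOPLESS-related gene of the family of transcriptional corepressors that act in auxin signalling, averaged 3.25 ± 0.453 in Yuanjiangyangsuan, 2.49 ± 1.55 in Chalingzipisuan and 1.44 ± 0.667 in Ershuizao (SD, n = 3 each). The log2 difference from Ershuizao was 1.01 (standard error 0.41, limma adjusted p = 0.084). The YUCCA-like *Asa2G02184.1*, of the family that makes auxin from indole-3-pyruvate, averaged 2.32 ± 1.01, against 2.16 ± 0.728 in Chalingzipisuan and 2.36 ± 1.10 in Ershuizao (SD, n = 3 each), a log2 difference of 0.02 from the mean of the others (standard error 0.33). The TB1-like *Asa2G00245.1* was listed at 0 in 8 of the 9 libraries and at 0.131, from 4 fragments, in Ershuizao replicate 2. At these depths a difference in this gene was not detectable.

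Called genes were spread over all groups of identifiers. The digit after Asa runs from 0 to 8, and the study places an Asa2G gene on chromosome 2. Among identifiers with the digits 1 to 8, 6.27% to 7.86% of genes were higher and 10.1% to 13.4% lower in Yuanjiangyangsuan. Among those with the digit 0, 10.9% were higher and 17.9% lower. Neighbours in identifier number shared calls more often than genes at large. The next tested gene was also higher after 13.8% of the higher genes, against 6.92% of all genes with these digits, and also lower after 22.4% of the lower genes, against 11.8%. The longest runs of successive tested genes called the same way held 6 higher and 7 lower genes. In 513 windows of 100 identifier numbers with at least 30 tested genes, the share of lower genes ranged from 0% to 40.4% (median 11.3%) and that of higher genes from 0% to 30% (median 6.25%).

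The differences were examined again in the 9 enlarging libraries, which took no part in the calls. Among the genes called before enlargement, 267 higher and 80 lower ones did not pass the filter there and enter none of the shares below. Of the 1981 higher genes that were also tested there, 1279 (64.6%) were again higher than in both varieties, and of the 3747 lower genes 2603 (69.5%) were again lower. By the same rule, 6.90% of the 31419 genes tested in enlarging bulbs were higher and 10.5% lower. No gene was called in opposite directions at the stages. The log2 difference had the same sign in 94.2% of the higher genes and 98.1% of the lower genes, against 44.5% positive and 55.5% negative signs over all genes tested there. Its median was 1.80 in enlarging bulbs and 1.92 before enlargement for the higher genes, and -2.04 and -2.14 for the lower genes.

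**Figure D5:**
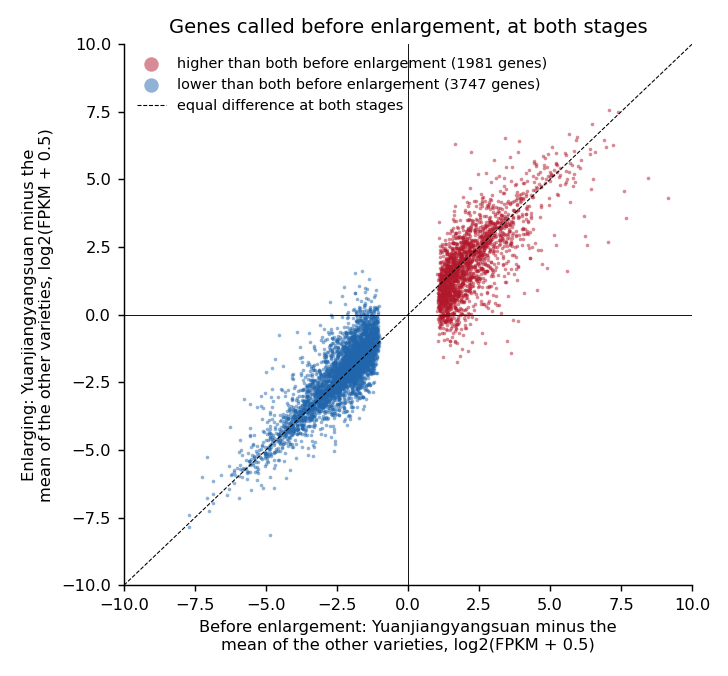
Log2 difference of Yuanjiangyangsuan from the mean of the other varieties before enlargement (x axis) and in enlarging bulbs (y axis), both on the scale of log2(FPKM + 0.5), for the 1981 higher (red) and 3747 lower (blue) genes called before enlargement and tested at both stages. The dashed line marks equal differences. Of the red points 94.2% and of the blue points 98.1% keep their sign, which the filter fixes in part for genes silent in a variety.

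Absent transcripts kept the pattern in most cases. Of the 1389 genes at 0 in Yuanjiangyangsuan alone before enlargement, 951 (68.5%) again had 0 in all 3 enlarging Yuanjiangyangsuan libraries and at least 0.5 in all 6 others. In 52 of them an enlarging Yuanjiangyangsuan library reached an FPKM value of 0.5. Of the 492 genes detected in Yuanjiangyangsuan alone, 342 (69.5%) kept the full pattern, and in 10 an enlarging library of the other varieties reached 0.5. Over all 57561 genes of the table, 1221 were at 0 in Yuanjiangyangsuan alone among enlarging bulbs and 546 were detected in it alone, by the same limits. The difference of Yuanjiangyangsuan from the mean of the others passed a test of dependence on the stage in 910 of 33681 genes (2.70%, interaction in limma over all 18 libraries at an adjusted P under 0.05). With 3 libraries per variety and stage, the genes that did not pass are not shown to be free of such a dependence.

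The genes with the largest differences kept their direction in enlarging bulbs. *Asa7G04213.1* was at 0 in all 3 enlarging Yuanjiangyangsuan libraries, against 38.4, 67.9 and 368 in Chalingzipisuan and 166, 288 and 51.0 in Ershuizao. *Asa3G01705.1* was at 0 there too, against 5.67 to 88.8 in Chalingzipisuan and 17.7 to 108 in Ershuizao. *Asa2G01034.1* had 26.0, 4.82 and 11 in Yuanjiangyangsuan and 0 in the 6 other enlarging libraries. *Asa0G02930.1* had 53.0, 1.93 and 5.50, against 0 to 0.893 in the other varieties. Of the genes with a role, 3 of those tested at both stages were called against 1 or both varieties in enlarging bulbs. Among all genes tested there, 21.2% were called against Chalingzipisuan, and 6.90% were higher than in both varieties. The CDF2-like *Asa8G01471.1* was lower than in Ershuizao among enlarging bulbs, where 22.2% of the genes tested differed from that variety. It stood at 6.40, 8.17 and 5.50 in Yuanjiangyangsuan, against 39.8, 32.2 and 35.6 in Ershuizao and 13.5, 12.7 and 8.48 in Chalingzipisuan. *Asa3G03395.1* was higher than in Chalingzipisuan among enlarging bulbs, by a log2 difference of 1.64 (standard error 0.47, limma adjusted p = 0.034), against -0.29 before enlargement. The TOPLESS-related *Asa4G00255.1* was higher than in both varieties among enlarging bulbs, at 4.01, 4.38 and 5.03 in Yuanjiangyangsuan, against 2.05, 0.556 and 1.77 in Chalingzipisuan and 1.04, 0.498 and 1.93 in Ershuizao. Its log2 difference from the mean of the others was 1.56 there (standard error 0.37, limma adjusted p = 0.0122), against 0.73 before enlargement (standard error 0.36), and the change between the stages was not past the threshold (interaction 0.83, standard error 0.53, limma adjusted p = 0.44).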

How the data were processed

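The authors extracted total RNA, built libraries of 300 bp fragments, trimmed and filtered the reads, mapped them to the garlic genome by HISAT2 with default parameters and deposited an FPKM value for each gene and library, without pooling replicates. The counting program is not given in the sources used here. All 18 columns matched a labelled sample.

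The FPKM values of a gene are whole multiples of the value of 1 fragment. From these steps, fragments were recovered for 39933 of 39933 genes above 0 in at least 2 libraries (99.7% of values above 0, largest distance from a whole number 7.93e-05, tolerance 0.003). They gave depths, gene lengths and a test with voom. For 78 genes the length was made whole by a common factor. Limits from a count of 0 use 3 fragments per library and stand for counting error alone, as no molecular identifiers are named in the protocol.

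log2(FPKM + 0.5) of the 9 libraries was compared with limma 3.58.1 in R 4.3.3 (1 mean per variety, trend and robust moderation, Benjamini-Hochberg adjustment over all genes tested). A fold change on this scale understates the change of genes of low abundance. Enlarging libraries were fitted apart in the same way, and the interaction over all 18. Exact permutation tests were two-sided. Replicates are individuals, so that p-values measure their spread. Scripts were tested on simulated data. Python 3.11.15, numpy 2.4.6, pandas 2.3.3, scipy 1.17.1 and matplotlib 3.10.9 were used.

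The named genes were the 19 that the study or an earlier account of these data names with a role, and the 2 largest differences in each direction among genes called against both varieties, above 0 in all 9 libraries and without overlap, ranked by the smaller difference. Genes and lists were chosen with earlier results of these data known. The alternatives tried were another pseudocount (0.1 or 1), filter, scaling, moderation, threshold or joint fit, voom on recovered fragments, a replicate block, and each library left out. The filter in at least 2 libraries when a library is left out, and the grouping by length, were added after seeing the data.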

Additional observations from a re-analysis of the deposited data

Results flagged for a closer look

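The difference of Yuanjiangyangsuan from the mean of the other varieties itself differed between the stages in 2 of the named genes, by a test of the interaction over all 18 libraries. For *Asa0G02930.1* the log2 difference in enlarging bulbs minus that before enlargement was -4.08 (standard error 0.95, limma adjusted p = 0.0336), with 3.59 in enlarging bulbs and 7.66 before enlargement. For *Asa2G01034.1* it was -3.05 (standard error 0.53, limma adjusted p = 0.00781), with 4.55 in enlarging bulbs and 7.60 before enlargement. In both genes each enlarging Yuanjiangyangsuan library lay below each Yuanjiangyangsuan library before enlargement, and the other varieties stayed under an FPKM value of 2 at both stages. *Asa2G01034.1* was at 0 in all enlarging libraries of the other varieties, so that its 4.55 there rests on the added 0.5 and is a lower limit. *Asa0G02930.1* had 0 to 4 fragments in those libraries. The size of the change between the stages is therefore loosely fixed in both genes. Both genes were picked for the size of their difference before enlargement, so that a smaller value at the other stage is in part built into the choice. Enlarging replicate 1 of Yuanjiangyangsuan was the highest of its group in both, at 53.0 against 1.93 and 5.50 for *Asa0G02930.1* and 26.0 against 4.82 and 11 for *Asa2G01034.1*. The sum over the 175 tested genes of the same length of 312 bases was 1731 to 5136 in enlarging Yuanjiangyangsuan libraries, against 2007 to 9914 in Chalingzipisuan and 2824 to 7940 in Ershuizao, all below the lowest sum before enlargement. The part of that in the 2 genes was not tested.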

How the results depend on the processing

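Of 569 values recomputed under alternatives, 525 kept their direction and their side of the threshold (counts: stayed within 1.5 times), 12 fell short of it, 8 newly passed it and 24 changed sign. Genes higher than in both varieties numbered 1937 to 3324 over the other settings and 1158 to 2472 with a library left out. The low values are those without Yuanjiangyangsuan replicate 1 (1321), 2 (1231) or 3 (1158), where a gene expressed in that variety alone cannot reach 0.5 in 3 libraries. With the filter lowered to at least 2 libraries, chosen after seeing the data, the range was 2114 to 2651. Lower genes numbered 2903 to 4590, and 3403 to 3941 with a library left out. Calls against Chalingzipisuan numbered 5899 to 8303, against Ershuizao 6248 to 8385, against the mean of both 6358 to 8553, and shared calls in enlarging bulbs 2726 to 3949, each with a library left out. Without a fold limit, 12172 genes differed from the mean of both. Calls between Ershuizao and Chalingzipisuan depended most on the setting, with 308 under the replicate block, 317 with all 18 libraries in 1 fit, 1758 at unadjusted P and 134 to 493 with a library left out. The lowest were those without Ershuizao replicate 3 (134), 2 (186) and 1 (233) and Chalingzipisuan replicate 3 (321). The cause was not tested, except that fewer libraries entered these fits.

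Libraries of the same replicate number were treated as unpaired, since correlations between the deviations of same-numbered libraries were -0.285 to 0.104. With the replicate number as a block, 2158 genes were higher and 3678 lower than in both varieties.

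Signs of the difference from the mean of the other varieties changed only in 5 named genes, all with small differences and not called against that mean under these settings. *Asa6G01479.1* had 0.07 with a pseudocount of 0.1, 0.50 after quantile normalization, 0.14 with voom and -0.20 to 0.20 with a library left out. *Asa2G02184.1* had -0.03 with median-ratio scaling and -0.24 to 0.30 with a library left out. *Asa6G06199.1* had 0.04 and *Asa6G02235.1* 0.44 after quantile normalization, and -0.69 to 0.17 and -0.55 to 0.26 with a library left out. *Asa3G02513.1* had -0.05 to 0.29 with a library left out. Its difference from Chalingzipisuan passed 2-fold under 5 alternatives (largest value 1.16), and under others its limma adjusted p was above 0.05. Scaling moved the median log2 difference of all genes by less than 0.1. Genes under about 3 fragments per library, such as the TB1-like gene, are limited by depth.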
